A study of Mus musculus with 8 samples.

Results

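Sodium-coupled and facilitative hexose carriers, enzymes of gluconeogenesis and the enzyme that starts fructose breakdown were compared in the renal cortex of mice without SPAK and of wild-type mice. The 9 genes were Slc5a1, Slc5a2, Slc5a10, Slc2a2, Slc2a5, G6pc, Fbp1, Pcx and Khk, chosen by symbol among 19938 measured genes. Each had 1 probe set that was annotated with its symbol alone, and 0 probe sets listed it among several symbols. SPAK KO mice lacked SPAK, the kinase encoded by Stk39, and their littermates carried the wild-type gene (WT), with 4 samples per genotype. Both groups were C57Bl6J males of 10 weeks on a diet of 0.32% NaCl and 1% KCl. The part of Stk39 that was disrupted, and whether the loss was confined to a cell type, are not given in the sources used here. All values are log2 RMA expression values, on which a difference between groups is the log2 of a fold change. Probe sets differ in brightness, so their levels give no order of abundance between genes.

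Cells of the proximal tubule take filtered glucose back across their apical brush border with the sodium-glucose cotransporters and release it to the blood through basolateral carriers. SGLT2, encoded by Slc5a2, works in the early segment, where it takes up the bulk of filtered glucose, and SGLT1, encoded by Slc5a1, takes up what is left further along. The same cells make glucose from lactate, glutamine and glycerol, which in the body otherwise happens mainly in the liver, and they break down fructose. Insulin restrains renal gluconeogenesis, and fasting and acidosis raise it.

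The arrays within a group did not all stand equally far apart, which bears on every result below. Agreement was counted over the 6297 genes whose mean was over 8, after removing the median shift of each pair. Any pair of SPAK KO arrays had 1 to 10 genes more than 0.4 (log2) apart. WT 2 had 3 such genes against WT 3, while the 5 remaining WT pairs had 119 to 228. WT 2 and WT 3 were therefore counted as 1 sample in WT means ± SD (n = 3), and SPAK KO levels are given per array with no SD. The p-values of the fit over 8 arrays measure the spread between these arrays, and all 6 SPAK KO pairs were far closer than the 5 remaining WT pairs. Whether arrays that agree so closely hold separate RNA was not tested. Stk39 itself read 7.21, 6.98, 6.79 and 7.10 on SPAK KO arrays 1 to 4, against 8.36, 8.51, 8.60 and 8.11 on WT arrays 1 to 4. The arrays' medians over all probe sets lay between 6.09 and 6.12 in SPAK KO and between 6.13 and 6.19 in WT. The tissue label was set beside proximal tubule markers, which do not test how the cortex was cut. Markers of medulla and of perirenal fat, given further below, differed in part between the groups. Slc34a1, the phosphate carrier of the early proximal tubule, averaged 13.8 in both groups, and Lrp2, the endocytic receptor megalin, averaged 12.7 in SPAK KO and 12.6 in WT.

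None of the 9 genes passed in the comparison of SPAK KO with WT. By limma over all genes, 0 of 9 had a Benjamini-Hochberg adjusted p under 0.05, where 2.08% of all genes did. At an unadjusted p under 0.05 there were 3 of 9, against 19.1% of all genes. The groups did not overlap for 2 of 9, against 12.6% of all genes. G6pc, which encodes the catalytic subunit of glucose-6-phosphatase, came closest: it was 1.18 times as high in SPAK KO, with an adjusted p of 0.0507. The other 8 had differences below 0, from −0.03 for Fbp1 to −0.37 for Slc5a10. Across the 9 genes the median difference was −0.13, against −0.01 over all genes, of which 54.2% lay below 0. With neither WT 2 nor WT 3 in the fit, a choice made after seeing the data, only 5 of the 9 lay below 0.

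**Figure D1:**
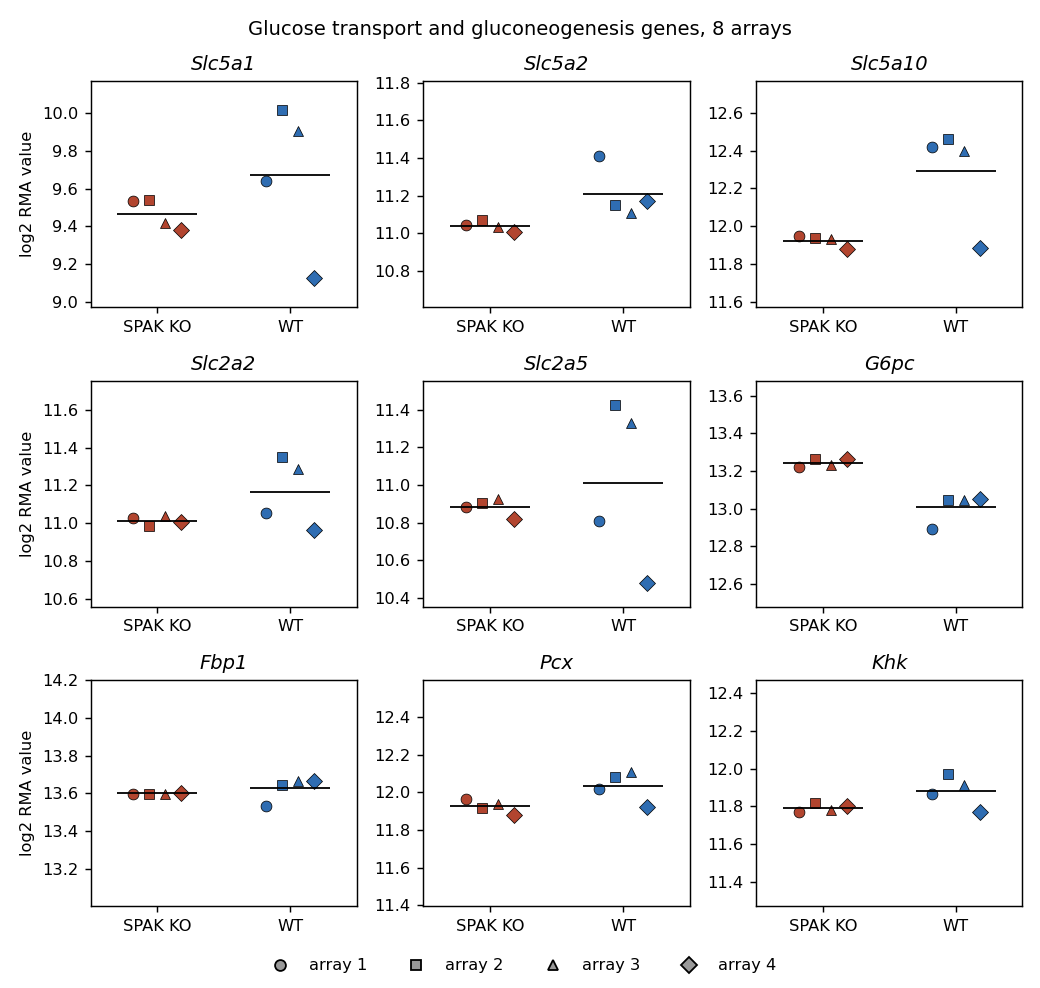
Log2 RMA values of the 9 genes on each array, SPAK KO on the left and WT on the right of each panel; marker shapes give the array number, lines are means of 4 arrays, and every panel spans the same 1.2 log2 units. The G6pc values of SPAK KO lie above all WT values, those of Slc5a2 below them, and the other 7 genes overlap.

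Promoters were set out for G6pc, whose arrays separated by genotype, and for the 4 hexose carriers that read low on WT 4. The aim was to show what sequence lies at the start of genes that moved together or apart over the arrays. Slc5a2 also separated by genotype but had no promoter entry. The windows run from 250 bases before to 50 bases after the start of the RefSeq gene in GRCm38.p6. They are chr11:101367466-101367765 on the plus strand for G6pc, chr5:33103969-33104268 on the plus strand for Slc5a1, chr11:61720750-61721049 on the minus strand for Slc5a10, chr3:28697653-28697952 on the plus strand for Slc2a2 and chr4:150119094-150119393 on the plus strand for Slc2a5. Each is printed 5′ to 3′ along its gene, with matches to the motifs listed after the sequences in capitals.
G6pc: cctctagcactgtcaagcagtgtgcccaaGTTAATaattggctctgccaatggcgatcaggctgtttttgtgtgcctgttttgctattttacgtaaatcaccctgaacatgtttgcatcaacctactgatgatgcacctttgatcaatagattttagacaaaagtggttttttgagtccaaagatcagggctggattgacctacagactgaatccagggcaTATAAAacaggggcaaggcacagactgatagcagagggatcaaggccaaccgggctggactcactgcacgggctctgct
Slc5a1: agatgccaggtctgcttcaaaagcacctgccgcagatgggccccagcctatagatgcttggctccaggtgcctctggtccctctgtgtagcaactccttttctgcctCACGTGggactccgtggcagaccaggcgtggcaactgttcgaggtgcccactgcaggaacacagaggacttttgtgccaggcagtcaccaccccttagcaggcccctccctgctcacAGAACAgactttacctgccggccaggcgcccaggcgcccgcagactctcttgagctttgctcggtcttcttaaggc
Slc5a10: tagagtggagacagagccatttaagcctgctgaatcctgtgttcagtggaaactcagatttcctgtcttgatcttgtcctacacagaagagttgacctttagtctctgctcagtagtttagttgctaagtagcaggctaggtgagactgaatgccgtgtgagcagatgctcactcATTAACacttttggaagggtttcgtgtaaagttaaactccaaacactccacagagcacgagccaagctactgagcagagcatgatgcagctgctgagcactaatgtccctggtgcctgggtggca
Slc2a2: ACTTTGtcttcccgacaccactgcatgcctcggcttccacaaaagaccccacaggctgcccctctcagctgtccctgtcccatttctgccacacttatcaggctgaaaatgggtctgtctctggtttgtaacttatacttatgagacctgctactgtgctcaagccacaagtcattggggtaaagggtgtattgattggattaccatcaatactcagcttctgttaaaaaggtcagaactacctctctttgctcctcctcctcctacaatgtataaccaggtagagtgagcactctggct
Slc2a5: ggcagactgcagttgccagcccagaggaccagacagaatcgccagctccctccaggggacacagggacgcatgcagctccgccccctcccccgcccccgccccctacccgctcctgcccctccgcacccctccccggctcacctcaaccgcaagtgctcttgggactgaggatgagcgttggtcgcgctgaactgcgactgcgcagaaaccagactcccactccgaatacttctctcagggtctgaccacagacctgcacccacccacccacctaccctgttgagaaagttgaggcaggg

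Matches were searched on both strands. The letters GTTAAT are part of the HNF1 palindrome and CAAAGT is a core of many HNF4 sites, both factors of proximal tubule and liver. CREB is known to bind TGACGTCA and also its shorter part TGACG, and FoxO factors bind GTAAACA. The E-box was taken as CACGTG, the core of a glucocorticoid receptor element as TGTTCT, and the TATA box as TATAAA. The G6pc window held GTTAAT, with its first base at −221 from the start site, and TATAAA at −29. GTTAAT was also in the windows of Slc5a10 (at −75, on the other strand) and Khk (at −60), and stood in 7.1% of all 32851 promoter windows, while TATAAA stood in 13.6%. The Slc5a1 window held CACGTG at −143 and TGTTCT at −26 on the other strand, found in 7.15% and 19.0% of all windows. In Slc2a2 the match was CAAAGT at −250 on the other strand, which 14.4% of windows held. The Slc2a5 window held none of these letters, and neither TGACGTCA (1.79% of all windows) nor GTAAACA (3.65%) was in any of the 10 windows of the 8 genes with an entry. TGACG, in 20.8% of all windows, was found on the other strand in that of Khk, where it overlaps a CACGTG. Slc5a10 and Pcx had 2 windows each. The Slc5a10 window that is not printed and the Fbp1 window held no match. Of the Pcx windows, 1 held CACGTG at −248 and the other held CAAAGT at 20, past the start site, on the other strand. A match describes letters and is not a binding site shown in these samples.

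Among the apical sodium-coupled carriers, Slc5a2 was lower on every SPAK KO array than on any WT array, by a small margin. It read 11.04, 11.07, 11.03 and 11.01 on SPAK KO arrays 1 to 4, against 11.41, 11.15, 11.11 and 11.17 on WT arrays 1 to 4. WT 1 stood above the rest, and the gap between the groups was set by WT 3. The WT mean was 11.2 ± 0.15 (SD, n = 3), and the fit over 8 arrays gave a difference of −0.17 ± 0.07 (SE; limma adjusted p = 0.205). The two-sided exact permutation test gave p = 0.0286, the smallest that 4 arrays against 4 allow. Groups did not overlap in 5.71% of all genes with SPAK KO lower.

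Slc5a1 differed more between WT arrays than between the groups. Its values were 9.53, 9.54, 9.42 and 9.38 on SPAK KO arrays 1 to 4, against 9.64, 10.02, 9.91 and 9.13 on WT arrays 1 to 4. All SPAK KO arrays lay inside the WT range, between WT 4 and WT 1. The WT mean was 9.58 ± 0.42 (SD, n = 3), the difference −0.21 ± 0.16 (SE; adjusted p = 0.516) and its 95% interval −0.56 to 0.15. With neither WT 2 nor WT 3, the difference was 0.08.

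Slc5a10, which encodes SGLT5, a carrier of mannose and fructose in the brush border, had the largest difference of the 9. It read 11.95, 11.94, 11.93 and 11.88 on SPAK KO arrays 1 to 4, against 12.42, 12.46, 12.40 and 11.88 on WT arrays 1 to 4. WT 4 lay within the SPAK KO range, and the 3 other WT arrays were well above it. The WT mean was 12.2 ± 0.31 (SD, n = 3), and the difference −0.37 ± 0.11 (SE; 0.78-fold, adjusted p = 0.126; exact permutation p = 0.114). The value depended on which WT arrays were used. Without WT 4, the difference was −0.503 and Slc5a10 passed, with a limma adjusted p of 0.0016. That fit counted WT 2 and WT 3 as separate samples, although they agreed closely. With neither WT 2 nor WT 3, the difference was −0.23 and did not pass (limma adjusted p = 0.40).

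Of the facilitative carriers, Slc2a2 encodes GLUT2, the basolateral exit for glucose and fructose. It read 11.03, 10.98, 11.04 and 11.005 on SPAK KO arrays 1 to 4, against 11.05, 11.35, 11.29 and 10.96 on WT arrays 1 to 4. WT 2 and WT 3 were high, while WT 1 lay just above and WT 4 just below the SPAK KO arrays. The difference was −0.15 ± 0.08 (SE; adjusted p = 0.352; 95% interval −0.34 to 0.03), and 0.0055 with neither WT 2 nor WT 3.

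Slc2a5, encoding GLUT5, a fructose carrier, read 10.89, 10.91, 10.93 and 10.82 on SPAK KO arrays 1 to 4, against 10.81, 11.43, 11.33 and 10.48 on WT arrays 1 to 4. WT arrays stood on both sides of the SPAK KO arrays. Its WT mean of 10.9 ± 0.45 (SD, n = 3) equalled the SPAK KO mean of 10.9 to this precision. The fit over 8 arrays gave −0.13 ± 0.18 (SE; adjusted p = 0.730; 95% interval −0.52 to 0.27). The sign turned without WT 2 (0.01) and with neither WT 2 nor WT 3 (0.24).

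In gluconeogenesis, G6pc acts last and releases free glucose. It read 13.22, 13.27, 13.23 and 13.26 on SPAK KO arrays 1 to 4, against 12.89, 13.05, 13.05 and 13.05 on WT arrays 1 to 4. Every SPAK KO array was above every WT array, and WT 1 was the lowest of the 8. The WT mean was 12.998 ± 0.09 (SD, n = 3), and the difference 0.23 ± 0.05 (SE; 95% interval 0.12 to 0.35; exact permutation p = 0.0286). SPAK KO was higher with no overlap in 6.9% of all genes. The difference lay between 0.20 and 0.29 in the 20 alternative settings. It passed in 7 of them, of which 0 left out an array, so the call turned on the setting.

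G6pc is also expressed by liver. Of 5 liver markers 1 was called higher, the fibrinogen chain gene Fga at 0.32 ± 0.06 (SE), and 0 lower. Over all genes, 1.39% were called higher and 0.682% lower. Of the 5 differences, 3 were above 0 and 2 below (median 0.32). An unadjusted limma p under 0.05, in either direction, was reached by 4 of the 5, against 19.1% of all genes. Alb, albumin, read 8.70 to 8.89 on the SPAK KO arrays, against 8.01 to 8.67 on the WT arrays, and did not pass (adjusted p = 0.0668). The summed linear level of the 5 markers was 693 to 781 on the SPAK KO arrays and 492 to 657 on the WT arrays. The sum was taken over the same probe sets on every array and is weighted towards the brightest, that of Alb. Ahsg, fetuin A, read 3.94 to 4.27 (log2) on the SPAK KO arrays and 4.34 to 4.63 on the WT arrays. These low values lie under the arrays' medians over all probe sets, 6.09 to 6.19. RMA values have no 0, so absence cannot be read from them, and the part of liver-type transcripts in the G6pc result was not tested. In bulk cortex, a change in the number of proximal tubule cells and a change in RNA per cell cannot be told apart.

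Fbp1, fructose bisphosphatase, acts a few steps before G6pc and was nearly level. It read 13.60 on each of SPAK KO arrays 1 to 4, against 13.53, 13.64, 13.67 and 13.67 on WT arrays 1 to 4. SPAK KO lay between WT 1 and the 3 other WT arrays. The difference was −0.03 ± 0.05 (SE; adjusted p = 0.794), with a 95% interval of −0.13 to 0.08, and became 0.03 with each array centred on its median over all probe sets.

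Pcx, pyruvate carboxylase, feeds mitochondrial oxaloacetate into the path. It read 11.97, 11.92, 11.94 and 11.88 on SPAK KO arrays 1 to 4, against 12.02, 12.08, 12.11 and 11.92 on WT arrays 1 to 4. WT 4 lay among the SPAK KO arrays. The difference was −0.11 ± 0.05 (SE; adjusted p = 0.318; 95% interval −0.23 to 0.01).

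Khk, ketohexokinase, phosphorylates fructose as the first step of its breakdown. It read 11.77, 11.82, 11.78 and 11.80 on SPAK KO arrays 1 to 4, against 11.86, 11.97, 11.92 and 11.77 on WT arrays 1 to 4. Here too WT 4 was as low as the SPAK KO arrays while the other WT arrays were higher. The difference was −0.09 ± 0.05 (SE; adjusted p = 0.4002; 95% interval −0.21 to 0.03).

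**Figure D2:**
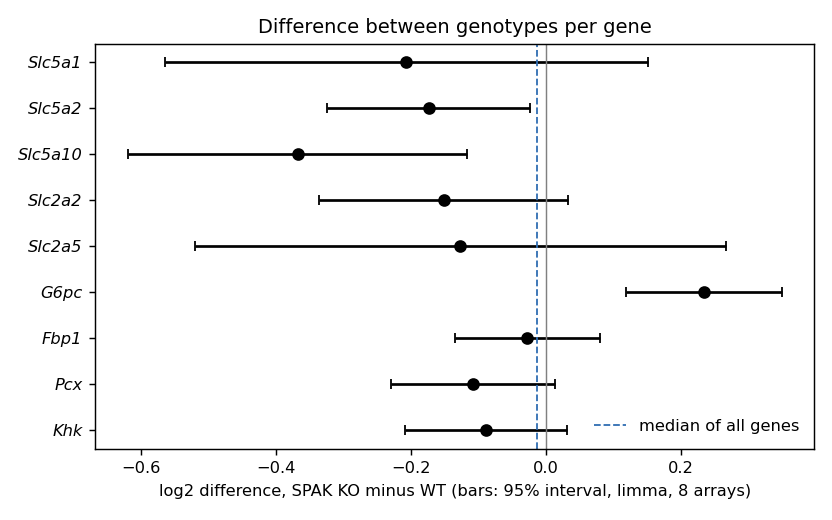
Difference of each gene, SPAK KO minus WT, on the log2 scale (points) with its 95% interval from the limma fit over 8 arrays (bars); the dashed line is the median of all genes, −0.01. The intervals of Slc5a2, Slc5a10 and G6pc exclude 0 before adjustment, and those of the other 6 genes include it.

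Of the 5 hexose carriers, 4 had a wide spread between WT arrays and Slc5a2 did not stand out. The range over the 4 WT arrays was 0.945 for Slc2a5, 0.891 for Slc5a1, 0.578 for Slc5a10 and 0.389 for Slc2a2, wider than in 99.6%, 99.5%, 96.4% and 84.2% of all genes. For Slc5a2 it was 0.303, wider than in 70.007% of all genes. Over the SPAK KO arrays the range was 0.106 for Slc2a5, 0.160 for Slc5a1, 0.07 for Slc5a10, 0.05 for Slc2a2 and 0.07 for Slc5a2. The enzymes spread less: the WT range was 0.204 for Khk, 0.189 for Pcx, 0.160 for G6pc and 0.132 for Fbp1. Over the 9 genes, the median range was 0.07 in SPAK KO and 0.303 in WT, against 0.173 and 0.224 over all genes.

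WT 2 and WT 3 were above the 6 other arrays for Slc5a1, Slc2a2, Slc2a5, Pcx and Khk, 5 of 9, where this held for 6.17% of all genes. They were below the 6 others for 0 of 9, against 6.18% of all genes. Both counts were chosen after the values were seen. Slc5a2 and G6pc had another order, with WT 1 the highest of the 8 for Slc5a2 and the lowest for G6pc. The opposite order appeared in Pck1, phosphoenolpyruvate carboxykinase, the enzyme that commits oxaloacetate to gluconeogenesis. It read 12.63, 12.50, 12.50 and 12.49 on SPAK KO arrays 1 to 4, against 12.43, 11.52, 11.58 and 12.46 on WT arrays 1 to 4. WT 2 and WT 3 were low and the other 6 arrays close together, so that the difference of 0.53 ± 0.20 (SE; adjusted p = 0.197) became 0.09 with neither of them. Pdk4, the kinase that shuts off pyruvate dehydrogenase, gave 8.69, 8.55, 8.59 and 8.58 against 8.87, 7.13, 7.32 and 6.92 on the same arrays. WT 1 was close to the SPAK KO arrays in Pdk4 and the 3 other WT arrays were far lower. Its difference of 1.04 ± 0.35 (SE; adjusted p = 0.147) was 1.48 and passed without WT 1 (limma adjusted p = 1.2e-04). The fit without WT 1 counted WT 2 and WT 3 as separate samples, although they agreed closely.

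**Figure D3:**
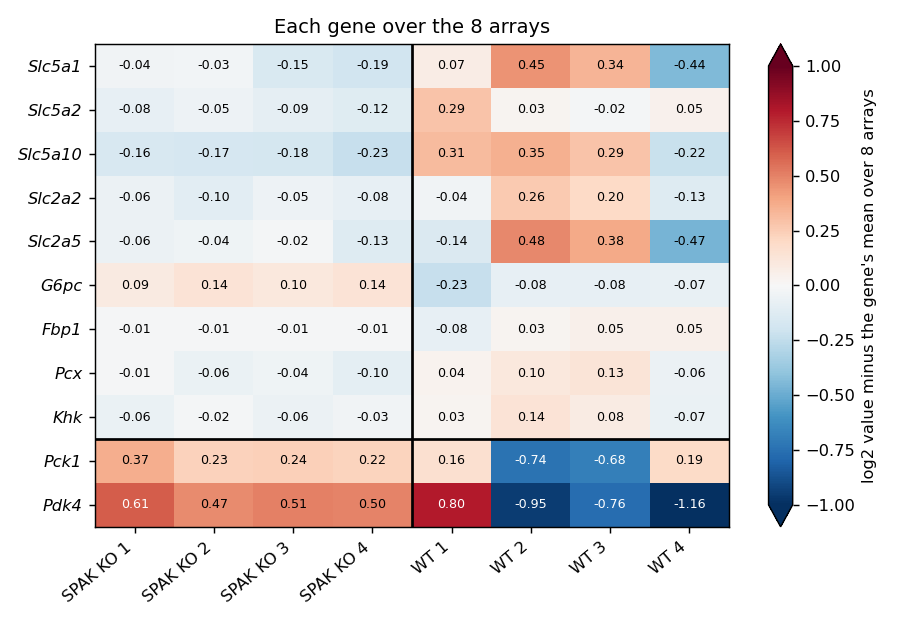
Each gene's log2 value minus its mean over the 8 arrays, SPAK KO arrays on the left and WT arrays on the right, with Pck1 and Pdk4 under the 9 genes; red is above the gene's mean and blue below. Slc5a1 and Slc2a5 are high on WT 2 and WT 3 and low on WT 4, and Pck1 is low on WT 2 and WT 3.

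Whether genes of like role changed unequally was asked in 5 pairs, from the difference of the 2 genes within each array, which a shift common to both does not alter. G6pc minus Fbp1 was −0.38, −0.33, −0.37 and −0.34 on SPAK KO arrays 1 to 4, against −0.64, −0.60, −0.62 and −0.61 on WT arrays 1 to 4. The groups stood apart and WT 1, low in both genes, lay with the other WT arrays. Alone, G6pc differed by 0.23 and Fbp1 by −0.03, so this pair largely repeated the difference of G6pc. Relative to Fbp1, G6pc was higher in SPAK KO by 0.26 (two-sided exact permutation p = 0.0286, the smallest possible; 0.143 adjusted over the 5 pairs), and by 0.24 to 0.27 under the 14 alternative settings run for pairs.

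The 4 other pairs overlapped between the groups. Slc5a10 minus Slc5a2 was 0.87 to 0.90 on the SPAK KO arrays and 0.71 to 1.31 on the WT arrays, a difference of −0.19 (exact permutation p = 0.314, 0.524 adjusted). Khk minus Fbp1 differed by −0.06 with the same p-values. Slc5a1 minus Slc5a2 differed by −0.03 and Slc2a5 minus Slc2a2 by 0.02, both with an adjusted exact permutation p of 0.971. In Slc5a1 minus Slc5a2 the SPAK KO arrays ran from −1.63 to −1.51 and the WT arrays from −2.05 to −1.14, so the WT arrays differed far more from each other than the groups did. Without WT 4, the pairs of G6pc with Fbp1, Slc5a10 with Slc5a2 and Khk with Fbp1 had differences of 0.26, −0.32 and −0.11. Each had an exact permutation p of 0.0286, the smallest possible (0.0476 adjusted). For G6pc with Fbp1 the unadjusted p was the same with all arrays, where the adjusted p was 0.143. Its adjusted p fell only because the other pairs named here reached the same smallest p, so the fall is no added evidence for that pair.

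**Figure D4:**
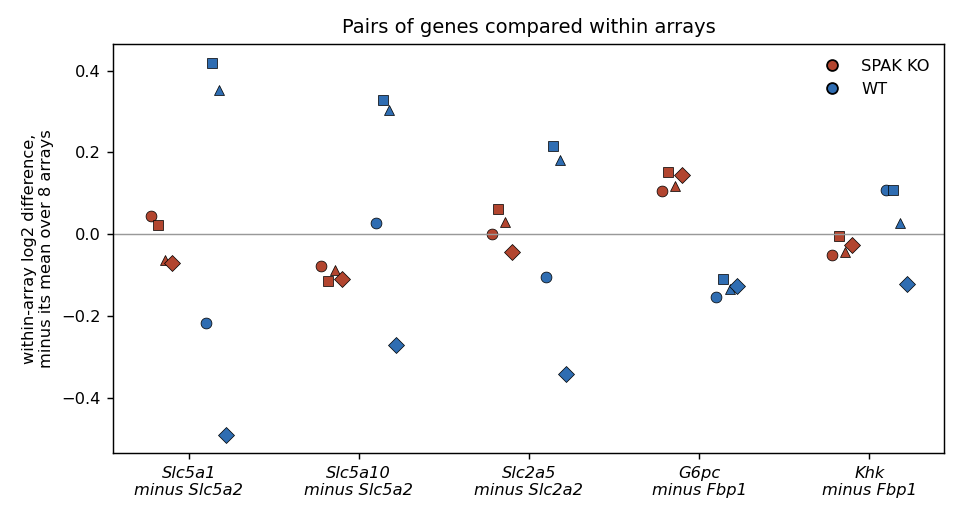
Within-array log2 difference of 2 genes, minus its mean over the 8 arrays, for 5 pairs; SPAK KO arrays are red and left, WT arrays blue and right, and marker shapes give the array number. The groups separate in G6pc minus Fbp1 (0.26 apart) and overlap in the other 4 pairs.

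Other genes of glucose and energy metabolism were described from 12 lists with 121 distinct genes measured, of which 6 were higher, 0 lower and 115 not called, against 1.39% higher and 0.682% lower over all genes. Of 12 other gluconeogenic genes, 0 were called (median −0.04). The one with the smallest p, Slc37a4, which carries glucose-6-phosphate to G6pc in the endoplasmic reticulum, gave −0.19 ± 0.06 (SE; adjusted p = 0.116). Of 10 genes for lactate and glycerol entry 0 were called (median −0.08), with the lactate carrier gene Slc5a8 at −0.15 ± 0.05. Of 4 further fructose and sugar genes 0 were called (median −0.07), with glycerate kinase, Glyctk, at −0.16 ± 0.06. Among 10 other SLC5 carriers 0 were called (median −0.04), and Slc5a9, a carrier of mannose and glucose, gave −0.17 ± 0.05. Of 3 SGLT partners 0 were called, with the scaffold gene Pdzk1 at 0.06 ± 0.05.

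Among 9 other SLC2 carriers 2 were higher. Slc2a9, a urate carrier, read 8.67, 8.84, 8.81 and 8.63 on SPAK KO arrays 1 to 4, against 8.04, 8.24, 8.13 and 8.49 on WT arrays 1 to 4. The groups did not overlap, and WT 4 was nearest to SPAK KO. It was higher by 0.51 ± 0.09 (SE; 1.43-fold, limma adjusted p = 0.0231), and passed in 2 of 8 fits with an array removed. Slc2a13, a proton-coupled inositol carrier, read 7.16, 7.15, 7.15 and 7.09 on the SPAK KO arrays, against 6.84, 6.74, 6.79 and 6.82 on the WT arrays. It was higher by 0.34 ± 0.05 (SE; adjusted p = 0.0064) and passed in 8 of those 8. Slc2a1 and Slc2a4, the glucose carriers GLUT1 and GLUT4, gave 0.19 ± 0.06 and 0.205 ± 0.05 and did not pass; they were named after their values were seen.

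Of 14 transcription regulators 2 were higher (median 0.12). Ppara, the fatty acid receptor active in fasting, read 10.09, 10.05, 10.04 and 10.08 on SPAK KO arrays 1 to 4, against 9.64, 9.81, 9.77 and 9.74 on WT arrays 1 to 4. It was higher by 0.33 ± 0.05 (SE; adjusted p = 0.0113), and passed in 8 of 8 fits with an array removed. Crtc2, a CREB coactivator known from hepatic gluconeogenesis, was higher by 0.303 ± 0.06 (SE; adjusted p = 0.0288), and passed in 1 of those 8. Of 11 insulin signalling genes 1 was higher, Igfbp1, a binding protein whose gene is repressed by insulin. Igfbp1 read 8.09, 8.03, 7.95 and 8.08 on the SPAK KO arrays, against 7.50, 7.44, 7.33 and 6.68 on the WT arrays, with WT 4 lowest. The difference was 0.80 ± 0.15 (SE; 1.74-fold, adjusted p = 0.0273), and it passed in 2 of the 8 fits.

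Of 12 fasting response genes 1 was higher (median 0.23). Txnip, which restrains glucose uptake, read 11.34, 11.34, 11.33 and 11.33 on SPAK KO arrays 1 to 4, against 11.09, 10.55, 10.59 and 10.47 on WT arrays 1 to 4. WT 1 stood between the SPAK KO arrays and the 3 other WT arrays. It was higher by 0.66 ± 0.12 (SE; 1.58-fold, adjusted p = 0.0203), and passed in 2 of 8 fits with an array removed. Of 17 glycolytic genes 0 were called (median 0.04), and the hexokinase gene Hk3 had the smallest p at −0.26 ± 0.06. All Hk3 values, 4.77 to 5.24, were low, under the arrays' medians over all probe sets (6.09 to 6.19). Of 11 genes of pyruvate dehydrogenase control 0 were called (median 0.03), Pdk4 being the one with the smallest p. Of 11 pentose phosphate and glycogen genes 0 were called (median 0.02), with glycogen phosphorylase, Pygl, at 0.24 ± 0.06. Centring each array on its median moved the median over all genes to 0.05. Over all genes, it raised the number called higher from 278 to 673 and cut the number called lower from 136 to 88. Beside that general shift, the number called among the other SLC2 carriers, the transcription regulators and the fasting response genes rose to 4 each.

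**Figure D5:**
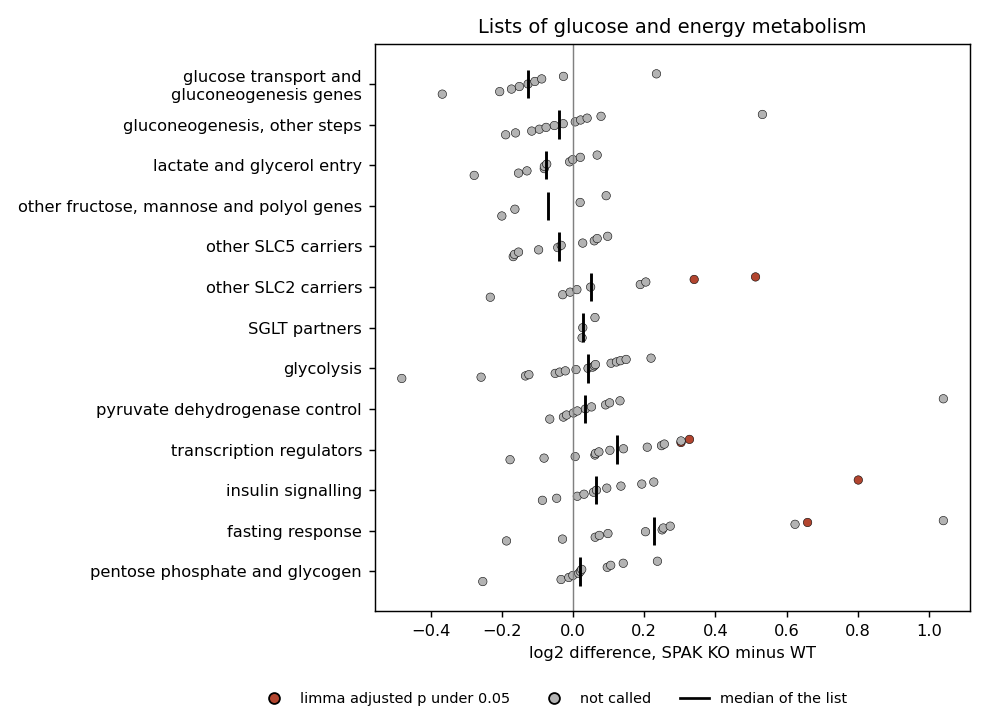
Log2 differences, SPAK KO minus WT, of the genes of each list (points), with the list's median (vertical line); red points passed limma at an adjusted p under 0.05. The 9 genes are in the top row with a median of −0.13, and the 6 genes called lie in 4 lists, all above 0.

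Markers of the cells that carry these genes were given for the same arrays. Of 5 early proximal tubule markers 0 were called, and their summed linear level was 39028 to 39423 on the SPAK KO arrays and 38931 to 39368 on the WT arrays. Of 6 late proximal tubule markers 0 were called, with 16788 to 17285 in SPAK KO and 15181 to 17512 in WT. Of these 6, 5 had a difference above 0 and 1 below (median 0.17). An unadjusted limma p under 0.05 was reached by 4 of the 6, against 19.1% of all genes. Markers of all proximal segments read higher in sum, at 59346 to 60120 on the SPAK KO arrays and 56726 to 57586 on the WT arrays, with no overlap, and 7 of 9 had a difference above 0. Of the 9, 2 were called higher, against 1.39% of all genes, the water channel gene Aqp1 at 0.34 ± 0.06 and the cystine carrier subunit gene Slc3a1 at 0.285 ± 0.05 (SE). With an array removed, Aqp1 passed in 5 of 8 fits and Slc3a1 in 2 of 8. A higher sum was not particular to proximal markers. The 4 thick ascending limb markers summed to 14636 to 14953 in SPAK KO and 13116 to 13602 in WT, with 1 called higher and 0 lower. The 6 collecting duct markers summed to 4160 to 4334 in SPAK KO and 3416 to 3845 in WT. They did not move as one: 2 were called higher and 1 lower, with 4 differences above 0 and 2 below. The 2 distal convoluted tubule markers went the other way, with 4939 to 5044 in SPAK KO and 5476 to 6044 in WT, and 1 was called lower. Over all genes, 0.682% were called lower. Of 3 medulla markers 0 were called higher and 1 lower, with 1 difference above 0 and 2 below. The groups did not overlap for 2 of the 3, with SPAK KO lower. Of 4 perirenal fat markers 1 was called higher and 0 lower, and all 4 differences were above 0. The fat markers summed to 585.7 to 619.9 in SPAK KO and 513.5 to 573.6 in WT, with no overlap. The part of segment make-up, medulla or fat in the differences of the 9 genes was not tested.

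The 2 genes most like each of the 9 over the 8 arrays, among genes with a mean of 6 or more, had Pearson's r between 0.965 and 0.993. They are given as a description with no p, since arrays that agree closely make fewer than 8 independent points. They were Cldn2, a paracellular channel of the proximal tubule, and Slc17a4 for Slc5a1, Tnip2 and Msantd3 for Slc5a2, and Arhgap10 and Gpd2, mitochondrial glycerol phosphate dehydrogenase, for Slc5a10. For Slc2a2 they were Niban3 and Cops6, and for Slc2a5 Plscr1 and Tex261. G6pc was followed most closely by Rdh16f2, a retinol dehydrogenase family member, and Abca5, Fbp1 by Dedd and Psmd6, Pcx by Fdps, of isoprenoid synthesis, and Acsf2, and Khk by Ssr4 and Sipa1l2. Only Rdh16f2 among these 18 passed between genotypes, at 1.23 ± 0.14 (SE; adjusted p = 0.0031).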

How the data were processed

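Total RNA of dissected renal cortex was hybridised to 1-colour Affymetrix arrays, 1 per labelled sample, 4 SPAK KO and 4 WT. The deposited values are log2 expression values that the authors made with the RMA method; the submitters' processing notes name Affymetrix Expression Console as the software. Software version, genome build and filters are not given in the sources used here. RMA gives no detection call, and its normalization across arrays limits what can be said of a shift common to all genes. The number of arrays limits the precision.

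Gene symbols came from the platform's annotation table: 21789 of 35556 had exactly 1 symbol, 1621 several and 12146 none. Where several probe sets carried 1 symbol, the one with the highest mean over all arrays stood for it, which left 19938 genes. A limma 3.58.1 model of genotype (lmFit then eBayes, R 4.3.3) used all 8 arrays, and genes were called at a Benjamini-Hochberg adjusted p under 0.05. Differences are SPAK KO minus WT with moderated SE; WT means count WT 2 and WT 3 once, so they can differ from the fit's. The exact permutation test ran over all 70 splits. P-values measure the spread between these arrays, which may be partly technical.

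Members and lists were chosen with earlier results of these data known. Named were all 9 members, Pdk4, Pck1 and Stk39, each list's called genes or else its gene with the smallest p, and 2 genes most like each member; marker genes and others were named after their values were seen. Promoters are from RefSeq (GRCm38.p6), with entries for 8 of the 9 genes, all but Slc5a2. The alternatives were other normalizations, filters, variance models, array weights, a replicate block, arrays left out and agreeing arrays merged, with statmod 1.5.0 for the robust fit.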

Additional observations from a re-analysis of the deposited data

Results flagged for a closer look

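Of 50 groups of 4 arrays examined, for the 9 genes and the named pathway genes, 6 held an array set apart from its group by more than Dixon's 95% limit, where chance gives about 1 in 20. In SPAK KO, Fbp1 read 13.60 on array 4, the highest, but the whole range there was 0.0058. Pck1 was highest on SPAK KO 1, at 12.63 against 12.50 on the nearest array. Slc2a13 was lowest on SPAK KO 4, at 7.09 against 7.15. In WT, Slc5a10 was lowest on WT 4, at 11.88 against 12.40 on the nearest WT array. G6pc was lowest on WT 1, at 12.89 against 13.05. Hk3, low on all arrays, was highest on WT 1, at 5.24 against 5.07.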

How the results depend on the processing

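Of the 9 genes, 1 was called higher, G6pc, with quantile normalization, cyclic loess, arrays centred on their median, means under 6 left out, the lowest 30% of means left out, trend and robust variances, or array weights (adjusted p 0.0032 to 0.038), and 0 were called in the 8 fits without 1 array. The number called lower was 0 to 1 when 1 array was left out, Slc5a10 being called without WT 4. Over all genes, 278 were called higher and 136 lower. The counts were 673 and 88 with arrays centred, 526 and 241 with trend and robust variances, 175 and 78 with WT 2 and WT 3 counted as 1, 0 and 0 with agreeing arrays counted once, and 120 and 65 with neither WT 2 nor WT 3. Leaving out means under 6 gave 462 higher, and array weights gave 218 lower. Without 1 array each, 106 to 407 were higher and 50 to 218 lower. Signs turned for Fbp1 (0.032) with arrays centred, and for Slc5a1 (0.083), Slc2a2 (0.0055) and Slc2a5 (0.24) with neither WT 2 nor WT 3. Slc2a5 ran from −0.30 to 0.012 when 1 array was left out. Slc5a1 with Slc5a2 gave 0.090 with WT 2 and WT 3 counted as 1, 0.34 with neither, and −0.20 to 0.10 without 1 array. Slc5a10 with Slc5a2 gave 0.024 with neither and −0.32 to −0.12 without 1 array, Slc2a5 with Slc2a2 0.235 with neither and −0.085 to 0.10 without 1 array, and without 1 array G6pc with Fbp1 0.25 to 0.27 and Khk with Fbp1 −0.11 to −0.035. The cause was not tested.

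With the replicate number as a block, 129 genes were called higher, 45 lower and 0 of the 9, with G6pc at an adjusted p of 0.106. Deviations of same-numbered arrays correlated at −0.05, 0.08, −0.13 and 0.13, so the numbers were not taken as pairs, and the blocked permutation test of 4 pairs could not go below 0.125. Arrays that agree closely may share RNA, and then the spread between SPAK KO mice is not measured.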

Other observations

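Beside the 9 genes, 18 of the 121 other pathway genes read higher on both WT 2 and WT 3 than on the 6 other arrays and 14 read lower on both, against 6.17% and 6.18% of all genes. The comparison was chosen after the values were seen. Among those above were 4 of 12 other gluconeogenic genes (Got1, Pgk1, Fbp2 and Slc37a4), 2 of 4 further fructose and sugar genes (Tkfc and Glyctk), and Pklr, the pyruvate kinase of liver and kidney. Tkfc, triose kinase, read 11.57, 11.57, 11.59 and 11.56 on SPAK KO arrays 1 to 4, against 11.72, 11.88, 11.97 and 11.52 on WT arrays 1 to 4. Pklr read 9.67, 9.59, 9.57 and 9.50 on the SPAK KO arrays, against 9.97, 10.41, 10.24 and 9.64 on the WT arrays. Both had WT 4 near or inside the SPAK KO range, and Pklr differed by −0.48 ± 0.14 (SE; limma adjusted p = 0.108). Of the 12 fasting response genes, 0 read above on both WT 2 and WT 3 and 3 read below.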
